A study of Mus musculus with 25 samples.

Results

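CD68-positive immune cells and the non-immune cells around them were compared within the injured regions of a mouse lung 14 days after tamoxifen had induced mutant surfactant protein C (SP-C I73T). The data are 10 of the 25 samples of the series, taken from its labels alone. They are the CD45+CD68+ segments (called CD68 here) and the DNA+CD45- segments (called non-immune) of injured regions 4, 5, 7, 8 and 11, paired by region number, 5 against 5. The other samples are 8 segments of the peri-injured regions 6, 9, 10 and 12, 6 segments of the healthy regions 1, 3 and 13, and 1 no template control.

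All injured and peri-injured regions came from 1 male SP-C I73T mutant given tamoxifen by gavage, 175 mg/kg in corn oil on the labels, which describe a single gavage where the study's methods describe a divided dose. The healthy regions came from 1 other male mutant given corn oil, so that both mice carried the allele. According to the methods, the mice were homozygous, and tamoxifen switched on a Flp-O recombinase expressed from Rosa26, which removed a neomycin cassette from the mutant gene. The labels add that this raises expression of the mutant. Injured regions were picked on histology, and the study treats regions as technical replicates. Every p-value below is therefore over regions, and no region class has more than 1 mouse. Tests against healthy regions set 1 mouse against another, and the fit over all segments draws its spread from both. As a measure of the spread between animals, each p-value would be too small. The study's segment annotation gives region 4 the control lung's tissue number together with the injured treatment. The call counts and the variance share are therefore also given without region 4.

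Surfactant protein C is made only by alveolar type 2 cells, and the mutant protein is misprocessed and stresses these cells. CD45 marks all leukocytes, and CD68 is a lysosomal glycoprotein abundant in macrophages, which in the lung include resident alveolar macrophages and cells that mature from recruited monocytes. The DNA-positive area without CD45 can hold epithelial, endothelial and mesenchymal cells. Since CD45 and CD68 staining defined the segments, the level of either is not a result. Each probe is listed under a barcode identifier that none of the tables at hand links to a gene symbol, so the segments were not checked against marker genes, and probes are described here by identifier, level and pattern.

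The CD68 segments were the smaller and shallower member of every pair. They covered areas of 12514.5, 20896.7, 9981.26, 8715.53 and 12931.7 in regions 4, 5, 7, 8 and 11, in a unit the authors' worksheet does not name, against 37829.0, 46596.6, 45335.4, 49877.5 and 59308.0 for the non-immune segments. CD68 segments thus made up from 14.9% (region 8) to 31.0% (region 5) of the collected area. Their total counts, after removal of duplicate reads, were 74049, 119493, 74139, 71786 and 84152, in the same order of regions. The non-immune segments held 297817, 350101, 431992, 472015 and 498411 counts, which was 2.93 (region 5) to 6.58 (region 8) times the count of the paired CD68 segment.

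The gap was smaller per unit of area, at which CD68 segments held 6.76 ± 1.06 counts and non-immune segments 8.56 ± 0.915 counts (mean ± SD, n = 5 each), a ratio of 1.27 (geometric mean) with the same direction in 5 of 5 pairs. A larger share of the CD68 counts was background, estimated from the 2018 probes that were least abundant in the segments outside the injured class. It was 44.2% (95% exact Poisson interval 42.7% to 45.8%) in the CD68 segment of region 4, and 42.7%, 40.4%, 42.6% and 40.9% in those of regions 5, 7, 8 and 11. The non-immune segments lay lower in 5 of 5 pairs, between 36.8% and 39.8%. With 5 pairs, the exact sign-flip permutation test cannot go below 0.0625 (two-sided), which it gave for total count, area, counts per area and background share (adjusted p = 0.0781 over 10 such measures). Counting intervals cover counting error only.

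**Figure D1:**
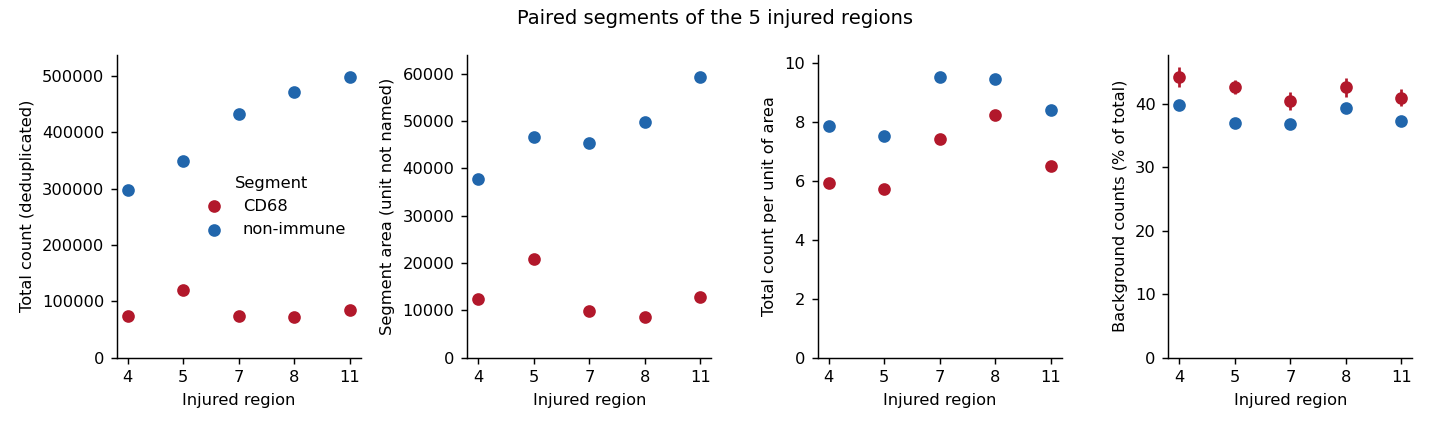
Total count, area, total count per unit of area and background share (with 95% exact Poisson intervals) of the CD68 (red) and non-immune (blue) segment of each injured region. CD68 segments lie below their pair for the first 3 measures and above it for background, and region 5 holds the largest CD68 segment, with 119493 counts.

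Of the variance of the log2 normalized counts (plus 1) of the 6000 most abundant probes, 21.2% lay between the compartments, 41.8% between the regions and 37.0% in neither. The share between regions was not tested, and it takes up 4 of the 9 degrees of freedom between segments, against 1 for compartments. The share between compartments was the highest of all 32 ways to swap the segments within regions, apart from its mirror image (exact permutation test, p = 0.0625, the smallest it can give). It fell to 15.5% when all segments were thinned to 71786 counts, and it was 24.5% without region 4. Principal component 1 held 23.0% of the variance. The non-immune segments had scores from -24.4 to -13.0 on it, and the CD68 segments scores from -2.19 (region 5) to 35.3 (region 8), without overlap.

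CD68 segments were also the more uneven group at full depth. Across probes, the median correlation was 0.385 between CD68 segments (10 pairs) and 0.783 between non-immune segments (10 pairs), but after thinning to equal totals it was 0.419 and 0.424, so that most of this contrast moved with depth. CD68 and non-immune segments of the same region then had a median correlation of 0.406 (5 pairs), against 0.379 for those of different regions (20 pairs). These correlations are over probes, which are not independent replicates, and segments of 1 region share a place in the section. The biological coefficient of variation between regions was 23.1% for CD68 and 17.2% for non-immune segments, and 23.3% and 20.5% at equal depth.

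Of 6000 probes tested, 268 (4.47% of all) differed between CD68 and non-immune segments by edgeR's quasi-likelihood test with the region as a block (adjusted p under 0.05). CD68 segments had the higher level for 78 probes (1.3%) and the lower level for 190 (3.17%). The 78 higher probes had a median log2 fold change of 1.47 (0.69 to 4.76), and the 190 lower probes a median of -1.25 (-2.55 to -0.59). The median over all 6000 probes was -0.17. Because the counts come from whole segments, fewer cells of a type and less RNA per cell cannot be told apart.

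The split between higher and lower calls moved with the scaling. The third quartile used for normalization was only 7 counts in 3 of the CD68 segments. With trimmed mean of M-values (TMM) factors in its place, the median over all probes moved from -0.17 to 0.03, and 117 probes were higher and 107 lower. All 78 higher probes (100%) and 107 of the 190 lower ones (56.3%) were still called, alongside the common upward shift of all probes. In limma's test on the Q3-normalized values, 66.7% of the higher and 86.8% of the lower calls were shared. Among the alternatives compared for shared calls, limma alone kept a larger share of the lower calls. With Q3 factors but no region block, 85.9% of the higher and 47.9% of the lower calls were kept. With the Wald test of DESeq2 it was 55.1% and 40%, and without region 4 it was 82.1% and 65.3%. In segments thinned to equal totals, 61 of the 78 (78.2%) and 41 of the 190 (21.6%) were still called, among 112 calls in all, with the median over all probes at 0.04. Without region 4, 202 probes were called, 188 of them among the 268. Without region 5 the count was 178, and without region 11 it was 176.

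**Figure D2:**
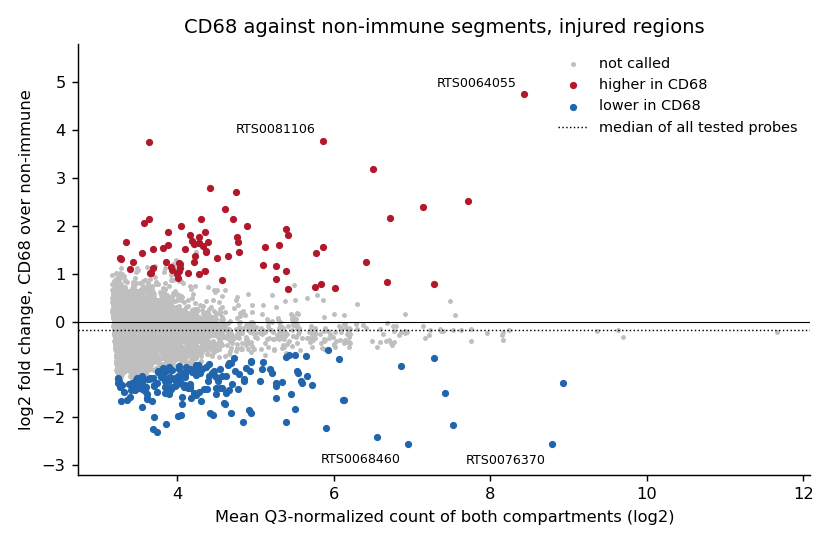
Log2 fold change of CD68 over non-immune segments against the mean Q3-normalized count of both compartments (log2) for the 6000 tested probes. Called probes are coloured, 78 higher in CD68 (red) and 190 lower (blue), the dotted line is the median of all probes, and the 4 named probes lie at the extremes of both directions.

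Calls were concentrated among abundant probes. Of the 1500 most abundant probes, 201 were called (13.4%), against 41, 15 and 11 (0.733%) in the next 3 groups of 1500. The typical level was low. A probe among the top 1500 had a median of 8 raw counts in CD68 and 42 in non-immune segments. Of the higher calls, 56 of 78 had the higher value in CD68 in all 5 pairs, against 2.27% of all tested probes. The groups did not overlap at all for 35 of them, against 0.667% of all tested probes in that direction. Of the lower calls, 168 of 190 were lower in all 5 pairs (12.2% of all), and 87 did not overlap (3.37% of all). The calls were made on these same pairs, so these counts are a description with no test. A single segment gave over 50% of the CD68 counts for 9 of the higher calls, and 15 of the lower calls had no count in at least 1 CD68 segment.

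RTS0064055 had the largest difference of all tested probes. Its Q3-normalized counts in the CD68 segments were 251.7, 1273, 172.3, 156.4 and 1506 in regions 4, 5, 7, 8 and 11. In the paired non-immune segments they were 17.19, 23.53, 14.06, 9.437 and 32.13. Every CD68 value lay above every non-immune value, and regions 5 and 11 held the highest values in both compartments. The log2 fold change was 4.76 (SE 0.23, edgeR adjusted p = 6.27e-17). Within a region, the CD68 level was from 12.3-fold (region 7) to 54.1-fold (region 5) the non-immune level.

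RTS0081106 was also higher in CD68 in every pair, at a lower level. It had 49.88, 228.5, 54.41, 24.94 and 186.5 normalized counts in the CD68 segments of regions 4, 5, 7, 8 and 11, against 6.613, 8.756, 4.535, 6.434 and 9.29 in the non-immune segments. The groups did not overlap, and regions 5 and 11 again held the highest CD68 values. The log2 fold change was 3.78 (SE 0.26, edgeR adjusted p = 5.43e-13). Its non-immune raw counts, 10 to 24, were close to the background of 5.87 to 9.22 counts per probe there. With this background removed from both compartments, the mean log2 ratio over the pairs went from 3.50 ± 1.10 to 4.67 ± 1.07 (SD, n = 5), whereas that of RTS0064055 went from 4.57 ± 1.00 to 4.95 ± 0.88.

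RTS0076370 was the probe with the largest deficit in CD68 segments. Its normalized counts in the non-immune segments were 406.7, 1040, 936.4, 304.1 and 1138 in regions 4, 5, 7, 8 and 11. In the CD68 segments they were 83.89, 160.3, 151.9, 77.09 and 142.8, without overlap. In both compartments, regions 4 and 8 were the lowest. The log2 fold change was -2.55 (SE 0.14, edgeR adjusted p = 2.12e-15), and the non-immune level was from 3.95-fold (region 8) to 7.96-fold (region 11) the CD68 level.

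RTS0068460 differed to the same degree. It had 126.3, 432.9, 189.5, 142.4 and 168.8 normalized counts in the non-immune segments of regions 4, 5, 7, 8 and 11, against 27.21, 47.61, 38.54, 34.01 and 27.77 in the CD68 segments. The non-immune segment of region 5 stood apart, and the groups did not overlap. The log2 fold change was -2.55 (SE 0.18, edgeR adjusted p = 1.16e-12). Removal of the background changed the mean log2 ratio over the pairs from -2.47 to -2.60 (SD 0.44 both times, n = 5).

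**Figure D3:**
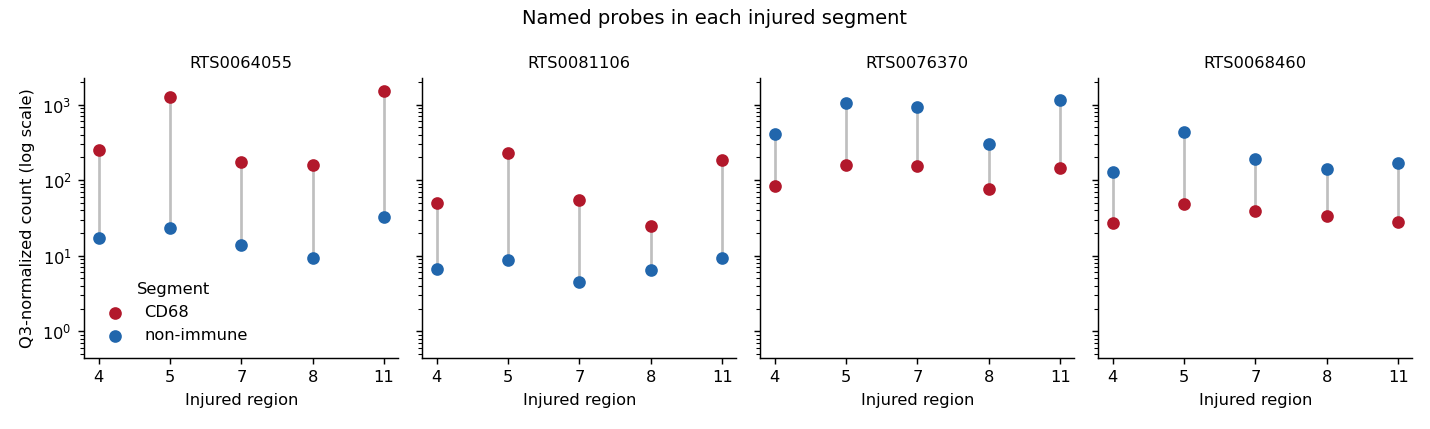
Q3-normalized counts (log scale) of the 4 named probes in the CD68 (red) and non-immune (blue) segment of each injured region, with grey lines joining the segments of a region. RTS0064055 and RTS0081106 are higher in CD68 in every region and peak in regions 5 and 11, while RTS0076370 and RTS0068460 are lower in CD68 in every region.

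High levels in region 5, or in region 11 for CD68, were common among the calls. Of the 78 probes higher in CD68, 37 (47.4%) had their highest CD68 level in region 5 and 33 (42.3%) in region 11, which left 8 for regions 4, 7 and 8 together. Among all 6000 probes, these shares were 24.1% and 19.8%. The CD68 level in region 5 was 1.73 times the mean of the other CD68 segments (median over the 78 probes), and in region 8 it was 0.443 times. Of the 190 probes lower in CD68, 121 (63.7%) had their highest non-immune level in region 5, against 21.6% of all probes, and 4 (2.11%) in region 8, against 25.0%. The calls rest on these same segments, so these shares are a description with no test. Region 5 also had the deepest and largest CD68 segment, and region 8 the smallest, and the part of depth in this pattern was not tested.

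**Figure D4:**
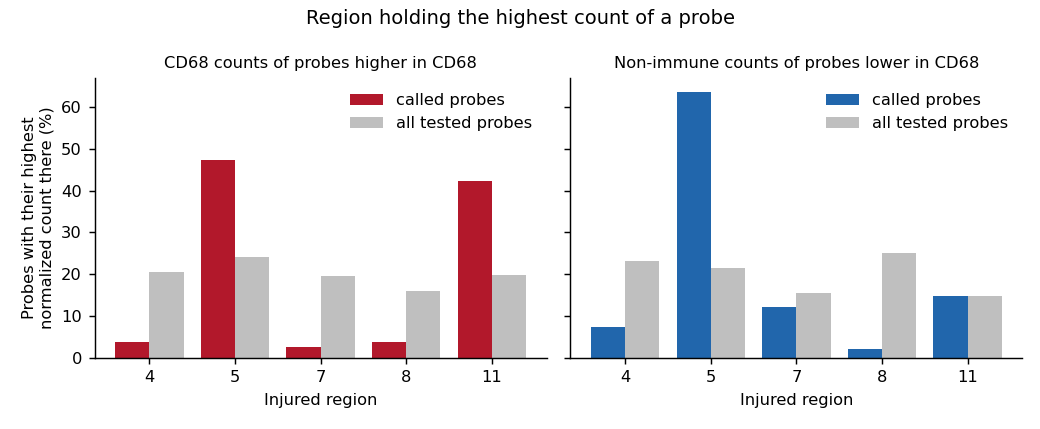
Share of probes whose highest normalized count lay in each injured region, for the CD68 counts of the 78 probes higher in CD68 (left, red) and the non-immune counts of the 190 probes lower in CD68 (right, blue), beside all 6000 tested probes (grey). Regions 5 and 11 hold 47.4% and 42.3% on the left, and region 5 holds 63.7% on the right.

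Each region was next set aside, and the probes called in the other 4 were looked up in the pair that the test had not used. Of the probes higher in CD68 in the other 4 regions, the share that was also higher in the left-out region was 80.6% (58 of 72), 86% (49 of 57), 77.5% (55 of 71), 73.3% (66 of 90) and 92.7% (51 of 55) for regions 4, 5, 7, 8 and 11. For all tested probes of that sign, the shares were 34% to 56%. Of the probes lower in CD68, between 85% (region 8) and 95.9% (region 11) kept their direction, against 58.8% to 74.3% of all probes of that sign. The size of the difference varied with the region left out. The median log2 difference of the higher probes in regions 4, 5, 7, 8 and 11 was 0.86, 1.88, 0.90, 0.57 and 1.73, and that of the lower probes -0.86, -1.34, -0.97, -0.71 and -1.38. In both directions regions 5 and 11 showed the largest differences and region 8 the smallest. Relative to the median of all probes of the pair, the share that kept its direction was lowest in region 8, at 83.3% of the higher and 67.6% of the lower probes, against 53.9% and 52.7% of all probes.

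**Figure D5:**
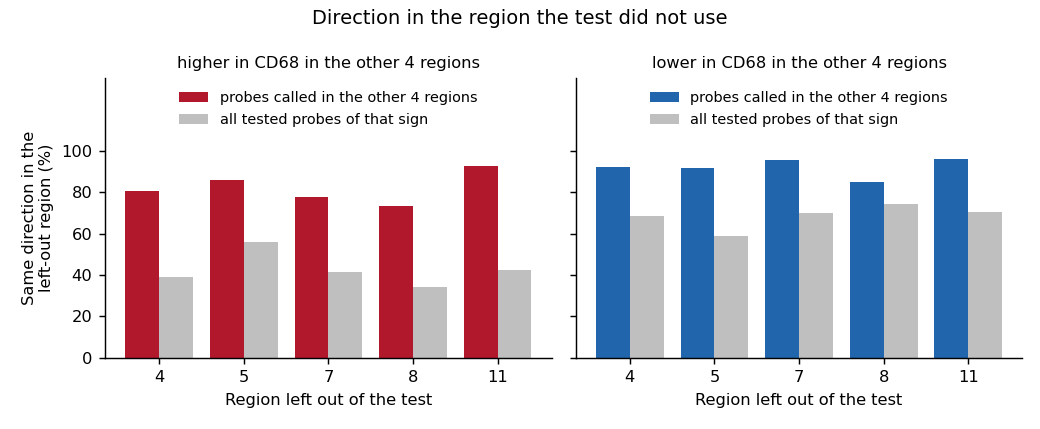
Share of probes with the same direction in a region that the test did not use, for probes called higher (left, red) or lower (right, blue) in CD68 in the other 4 injured regions, beside all tested probes of that sign (grey). The called probes lie above the grey bars in every region, between 73.3% and 95.9%.

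The compartment difference of the injured regions was then followed into the regions of the other classes. In the 4 peri-injured pairs, 71 of the 78 higher probes (91%) had a mean log2 difference of the same sign and 179 of the 190 lower ones (94.2%), against 29.5% and 83.9% of all probes of that sign in injured regions. Their median log2 differences there were 2.07 and -1.24. In the 3 healthy pairs, 56 of the 78 (71.8%) and 176 of the 190 (92.6%) had the same sign, against 33.4% and 75.7% of all probes, with medians of 0.74 and -0.77. Tested on its own, the difference between the compartments was called for 545 of 6000 probes (9.08%) in peri-injured regions and for 43 (0.717%) in healthy regions. The probes tested were the 6000 most abundant in the injured segments. The peri-injured calls held 172 of the injured ones in the same direction, which is 64.2% of the injured and 31.6% of the peri-injured calls. The healthy calls held 31, which is 11.6% of the injured and 72.1% of the healthy calls. No probe was called in opposite directions. Healthy CD68 segments had 35909 to 56172 counts. Peri-injured ones had 21955 to 93567, with regions 9 (21955) and 12 (33021) below every healthy one. The healthy regions are 3 and from the other mouse. The part of depth, number of pairs and mouse in these counts was not tested.

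RTS0080776 was among the probes whose compartment difference was called as larger in injured than in healthy regions. On a scale common to all 24 segments, its normalized counts in the injured CD68 segments were 225.4, 97.89, 237.4, 285.5 and 186.8 in regions 4, 5, 7, 8 and 11, and in the non-immune segments 27.91, 30.65, 54.1, 33.07 and 34.56. In the healthy regions 1, 3 and 13 it had 30.91, 40.79 and 6.44 in CD68 and 21.47, 17.79 and 25.76 in non-immune segments. The injured CD68 segments lay above all the others named here, and region 5 was their lowest. The log2 difference between compartments was 2.47 (SE 0.19) in injured and 0.42 (SE 0.39) in healthy regions, and the difference of the differences was 2.06 (SE 0.42, edgeR adjusted p = 0.0101). In peri-injured regions, the log2 difference was 2.78 (SE 0.23), and the difference of the differences was -0.31 (edgeR adjusted p = 0.813).

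In all, the compartment difference differed between injured and healthy regions for 7 of 6000 probes (0.117%), each with the higher value in injured regions and none with the lower (0%). RTS0075163, the other named one, had 62.25, 94.03, 66.24, 81.57 and 75.67 normalized counts in the injured CD68 segments and 56.89, 50.19, 58.51, 51.52 and 61.57 in the non-immune ones. In healthy regions 1, 3 and 13 it had 46.37, 47.23 and 45.08 in CD68 and 113.8, 70.53 and 85.33 in non-immune segments. The healthy non-immune segments were thus above the healthy CD68 segments. The injured segments showed the opposite order in 5 of 5 pairs on this scale, which the naming rule required. It was 4 of 5 when normalized without the other classes. The log2 difference between compartments was 0.45 (SE 0.17) in injured and -0.93 (SE 0.26, edgeR adjusted p = 0.0623) in healthy regions. In the injured segments alone it was 0.37 and not called (edgeR adjusted p = 0.23). The difference of the differences was 1.38 (SE 0.31, edgeR adjusted p = 0.0373). Region class and mouse cannot be told apart here. Without healthy region 13, whose non-immune segment had 80259 counts, no probe was called by edgeR (304 at an unadjusted p under 0.05). Without injured region 4, 6 probes were called, among them RTS0080776 and RTS0075163 (edgeR adjusted p = 0.0408 for each).

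Between injured and peri-injured regions, which come from the same mouse, the compartment difference differed for 78 of 6000 probes (1.3%). It was higher in injured regions for 10 (0.167%) and lower for 68 (1.13%). Of these 68 probes, 66 were higher in CD68 than in non-immune segments of peri-injured regions, with a median log2 difference of 2.51 over the 68, and 45 were so in injured regions, with a median of 0.50. The difference between compartments was called for 66 of the 68 in peri-injured and for 26 in injured regions, and 21 had opposite signs in the classes. In fits of each class alone, 9.08% of the 6000 probes most abundant in injured segments were called in peri-injured and 4.47% in injured regions. The 68 were picked on this same contrast, so these counts and medians are a description with no test.

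RTS0074969 had the largest such difference among the named probes. Its raw counts in the injured CD68 segments were 1, 6, 4, 5 and 6 in regions 4, 5, 7, 8 and 11, and in the non-immune segments 21, 18, 30, 37 and 40. In peri-injured regions 6, 9, 10 and 12 the CD68 segments had 17, 3, 15 and 8 counts and the non-immune segments 23, 15, 40 and 10. The background in the injured CD68 segments was 1.48 to 2.53 counts per probe. On the common scale the CD68 values were 2.147 to 10.73 in injured and 12.88 to 25.76 in peri-injured segments, without overlap. The non-immune values were 7.995 to 12.88 in injured and 5.486 to 8.31 in peri-injured regions, so both compartments entered the difference. The log2 difference was -0.51 (SE 0.35) in injured and 1.64 (SE 0.33) in peri-injured regions. In the injured segments alone it was -0.59 and not called (edgeR adjusted p = 0.401). The difference of the differences was -2.15 (SE 0.47, edgeR adjusted p = 0.00419).

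RTS0075773 had 4.293, 6.44, 3.68, 6.44 and 14.49 normalized counts in the injured CD68 segments, against 47.23, 30.05, 68.69 and 51.52 in those of peri-injured regions 6, 9, 10 and 12, without overlap. The raw counts in the injured CD68 segments were only 2, 5, 2, 3 and 9. Most of these were close to the background there, which was 1.48 to 2.53 counts per probe. The non-immune segments ranged from 5.903 to 38.2 in injured and from 29.23 to 50.27 in peri-injured regions. The log2 difference was -1.36 (SE 0.34) in injured regions. In peri-injured regions it was 0.28 (SE 0.23) and not called (edgeR adjusted p = 0.537). The naming rule took only probes lower in CD68 in all injured pairs, whereas 45 of the 68 were higher there, so the named probes are not typical of the 68. The difference of the differences was -1.64 (SE 0.41, edgeR adjusted p = 0.0158). Without injured region 5 it was -1.08, with an edgeR adjusted p of 0.356. For RTS0076370, the probe with the largest deficit in injured CD68 segments, the log2 difference was -2.47 (SE 0.19) in injured and -1.06 (SE 0.21) in peri-injured regions, which differ by -1.41 (SE 0.28, edgeR adjusted p = 0.000981).

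The count of 78 was lower with thinned counts and without region 6. The peri-injured CD68 segments held between 21955 and 93567 counts, and with all 24 segments thinned to 21955 counts, 4 probes were called. Without peri-injured region 6, the deepest of these CD68 segments, 44 were called, and without injured region 4, 81 were called. The study describes peri-injured regions 6 and 10 as near the injury and 9 and 12 as distal. Their CD68 segments held 93567, 89506, 21955 and 33021 counts, so depth and distance cannot be told apart here. At full depth, the count was 33 with DESeq2 and 8 with limma. The 5 injured pairs enter the comparisons with both healthy and peri-injured regions, so the counts from these are not independent.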

How the data were processed

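Formalin-fixed lung sections were profiled by the authors with the GeoMx Mouse Whole Transcriptome Atlas (version 1.0 of the kit). Barcode reads were aligned to probes and reduced to unique molecules by the GeoMx NGS Pipeline, whose version is given as 2.3.4 by the count files but as 2.3.5 by the metadata sheet. For each segment the authors deposited raw counts of 20175 probes after deduplication, neither filtered nor normalized, and a probe without an entry was read as 0. Segment areas came from the authors' worksheet. The no template control held 1 count from 150068 raw reads. The members, lists and tests were chosen with earlier results of these data known.

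The 6000 probes that took the largest mean share of counts were kept, in place of the authors' limit of quantitation, since negative control probes are not marked. They were normalized to the third quartile (Q3) and tested with edgeR 4.0.16 (R 4.3.3; quasi-likelihood test, region as a block, Benjamini-Hochberg adjustment over the probes tested, called at 0.05). The standard error was taken as the log2 fold change divided by the square root of F. Differences between classes were interaction terms of 1 fit over 24 segments. Differences within a pair used log2 of normalized counts plus 1. Alternatives used limma 3.58.1, DESeq2 1.42.0, other factors and filters, and thinning with a fixed seed. Fits were tested on simulated counts with 200 of 6000 probes changed, at a dispersion of 0.02, below the spread between regions given above. The injured fit recovered 25.2% of 2-fold and 61.8% of 4-fold changes. On average 8.8 of 95.8 calls were false, a larger share than the threshold of 0.05 aims at. Calls on the measured counts may therefore hold more false ones than that threshold states. Recovery was 9% and 50.2% for the contrast with peri-injured regions. For the contrast with healthy regions it was 3.2% and 28.2%, so few calls there do not show that few probes differ. Named probes are the 2 highest and 2 lowest calls with the same direction in 5 pairs and at least 10 raw counts in each segment of the higher compartment, and by the same rule for the interactions.

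The labels give the region number that pairs the segments. Deviations from the compartment means correlated between 0.0196 and 0.141 (median 0.0906) within the 5 pairs, 1 of them above 0.1, against a median of -0.0208 between regions. Segments of 1 compartment differed by more than counting noise (chi-square per degree of freedom 1.09 to 3.75 over 20 pairs). Depth per segment is given with the results, and it limits the precision in CD68 segments, where a median probe had 3 to 5 counts. Python 3.11.15 and matplotlib 3.10.9 were used for exact tests and plots.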

Additional observations from a re-analysis of the deposited data

Results flagged for a closer look

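Among 26 sets of 5 segment or pair values, 3 held a value that stood apart by Dixon's criterion (critical value 0.710), and chance alone sets apart about 1 in 20. All 3 were of region 5. Its CD68 segment held 119493 counts, against 71790 to 84150 in the other 4, and detected 19702 probes, against 18610 to 18910. Its non-immune segment had 432.9 normalized counts of RTS0068460, against 126.3 to 189.5 in the other 4. Without region 5, the log2 fold change of RTS0068460 was -2.31 and still called (edgeR adjusted p = 1.99e-13). With any other region left out it lay between -2.66 and -2.53.

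The difference between the compartments itself differed between region classes, by a test of the interaction in edgeR, for 78 probes against peri-injured and 7 probes against healthy regions. The named ones were RTS0074969 (-2.15), RTS0075773 (-1.64) and RTS0076370 (-1.41) against peri-injured and RTS0080776 (2.06) and RTS0075163 (1.38) against healthy regions, each given as the log2 difference in injured minus that in the other class.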

How the results depend on the processing

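The 4 probes named for the injured comparison were called with the same direction under all alternatives in which they were looked up. Their log2 fold changes were 4.45 to 5.12 for RTS0064055, 3.32 to 4.72 for RTS0081106, -2.67 to -2.32 for RTS0076370 and -2.66 to -2.18 for RTS0068460. They were not looked up under the settings chosen after seeing the data, which are named below. The count of 268 calls lay between 176 (without region 11) and 263 with 1 region left out, and 114 probes (39 higher, 75 lower) were called each time. It moved by more than 1.5 times without region 5 (178), without region 11, with the Wald test of DESeq2 (119), without the replicate block (159), with thinned counts (112) and, with settings chosen after seeing the data, without the replicate block with TMM factors (104) and thinned with TMM factors (115). The count of 78 against peri-injured regions was 33 with DESeq2, 8 with limma, 49 without the replicate block, 4 with thinned counts and 44 to 96 with 1 region left out. The count of 7 against healthy regions was 4 with the filterByExpr filter of edgeR and 0 to 6 with 1 region left out. It was 0 with DESeq2 (164 at an unadjusted p under 0.05), with limma (358), without the replicate block (284) and with thinned counts (188). The cause of these shifts was not tested. The named interaction probes kept their direction throughout, but the call was lost under 3 of 18 alternatives for RTS0074969 (adjusted p 0.0728 to 1.0 by edgeR or limma), 7 of 18 for RTS0075773, 6 of 17 for RTS0080776 and 11 of 17 for RTS0075163. The share of variance between compartments ranged from 15.5% to 24.6%, and the log2 ratio of the total counts from -2.46 to -2.17 with 1 region left out and was -0.35 per unit of area. The share of injured calls with the same sign was 93.3% (89.9% to 94.1%) in peri-injured and 86.6% (83.0% to 88.6%) in healthy pairs. At a median of 3 to 5 counts per probe in the CD68 segments, 11 of the 1500 least abundant probes tested were called, against 201 of the 1500 most abundant.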
